A study of Mus musculus with 4 samples.

Results

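The cytosolic ribosome, which translates the mRNA of the nuclear genes, consists of a large and a small subunit, each made of ribosomal RNA and a set of ribosomal proteins. The genes of these proteins were examined in tumor-associated macrophages (TAMs) of control and propranolol treated mice. They are the protein-coding genes of the GENCODE M21 annotation whose symbols are Rpl or Rps followed by a number, together with Rplp0, Rplp1, Rplp2 and Rpsa, without pseudogenes, the S6 kinases and Rps19bp1. This gave 85 of the 54146 genes in the count table, 52 of the large and 33 of the small subunit. Of the 85 genes, 77 encode core proteins of the ribosome and 8 are paralogs or extra copies of a core gene, namely Rpl22l1, Rps27l, Rps27rt, Rpl10l, Rpl36al, Rpl39l, Rpl3l and Rpl7l1.

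TAMs were sorted by FACS as live CD11b+F4/80+ cells from the CD45+ fraction of MCA205 tumors, which arise from a mouse fibrosarcoma cell line injected under the skin of the right flank. All mice were females of 8 to 16 weeks. The 2 propranolol libraries came from mice that drank water with propranolol, a nonselective blocker of beta-adrenergic receptors, at 0.5 g/L from the day the cancer cells were inoculated, and the 2 control libraries, labelled vehicle, from mice without the drug. The study calls the libraries of a group biological replicates. Whether cells of several mice were pooled was not stated, so p-values measure the spread between these libraries. Library totals were 13798249 and 23018142 counts in the control group and 39818103 and 16424081 in the propranolol group, of which ribosomal protein genes took 401167, 629973, 1382276 and 527623.

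Ribosomal proteins are made in near equal numbers, because each ribosome carries a single copy of most of them. Their mRNAs begin with a run of pyrimidines, the terminal oligopyrimidine (TOP) tract, through which mTORC1 and the La-related protein Larp1 control their translation. Abundance of an mRNA is therefore only part of what sets the rate at which a ribosomal protein is made, and the values here are abundances. In macrophages, translation is regulated by activation state and nutrient supply.

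The label of the samples was checked against marker genes. All 14 macrophage markers passed the filter on low counts, and their summed level was 34911 and 33095 CPM (counts scaled to the normalised library size) in control TAMs and 43773 and 42451 CPM after propranolol, with Apoe the most abundant. Of these 14 genes, Cd14 (log2 0.68) and Csf1r (0.59) rose and Ptprc (-0.74), which encodes the CD45 antigen used to enrich the cells, fell. Markers of other cells were lower by far but moved with the groups. The 16 T and NK cell markers summed to 451 and 490 CPM in control libraries and to 205 and 111 CPM in propranolol libraries, led by Gzmb, and 15 of them fell. The 12 markers of fibroblasts or tumor cells summed to 3497 and 1332 CPM against 749 and 787 CPM, led by Col3a1, and 10 fell. The 12 neutrophil markers summed to 182 and 199 CPM against 357 and 383 CPM, led by Csf3r, and 5 of the 8 tested rose. Of the 8 dendritic cell markers 3 fell, of the 5 tested B cell markers 2 rose and 1 fell, and of the 6 tested endothelial markers 1 rose. Over all tested genes 12.2% rose and 15.6% fell. The most abundant markers of these 3 lists were Batf3, Ighm and Pecam1, and the lists summed to between 36.6 and 55.8 CPM, between 161 and 218 CPM and between 49.1 and 64.4 CPM in a library. No marker of any list was at 0 in all 4 libraries. Ribosomal protein genes are expressed in every cell type, and the part of these cells in the results below was not tested. In bulk RNA, fewer cells of a type and less RNA per cell cannot be told apart.

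Ribosomal protein genes as a group were higher in TAMs of propranolol treated mice. Their share of all counts was 2.91% and 2.74% in control TAMs and 3.47% and 3.21% after propranolol. Both propranolol libraries lay above both control libraries, and the means were 2.82% ± 0.121 (SD, n = 2) and 3.34% ± 0.183 (SD, n = 2). On the scale of normalised library size (TMM factors of edgeR), the summed level went from 27051 and 25111 CPM to 38016 and 34553 CPM, a ratio of means of 1.39.

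Gene by gene, propranolol and control libraries were compared with edgeR's quasi-likelihood test over all 14688 genes that passed the filter on low counts, with Benjamini-Hochberg adjustment, and a gene was called where the fold change exceeded 1.5 in either direction with an adjusted p below 0.05. All adjusted p-values below come from this test. Of the 85 ribosomal protein genes, 82 were tested. Of these, 32 rose (39.0%) and 6 fell (7.32%), and 44 did not pass. Among all tested genes, 12.2% were called higher and 15.6% lower. The median log2 fold change was 0.42 for the 82 genes and -0.02 for all tested genes. In 51 of the 82 genes both propranolol libraries lay above both control libraries, and in 10 they lay below. For all tested genes these shares were 35.8% and 36.9%. With each library left out in turn, 26 of the 32 higher and 5 of the 6 lower genes were called every time. The calls that were lost in at least 1 of these fits were those of Rpl13, Rpl36a, Rps16, Rps2, Rps28, Rps6 and Rps27l. Each was lost because its fold change fell below 1.5, not through its adjusted p-value. Adjusted p-values were often far smaller in these fits than with all 4 libraries. Leaving a library out is therefore mainly a check on the size of a change. Without propranolol replicate 1, 10 ribosomal protein genes were called lower, as were 2305 of the 15348 genes tested there.

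**Figure D1:**
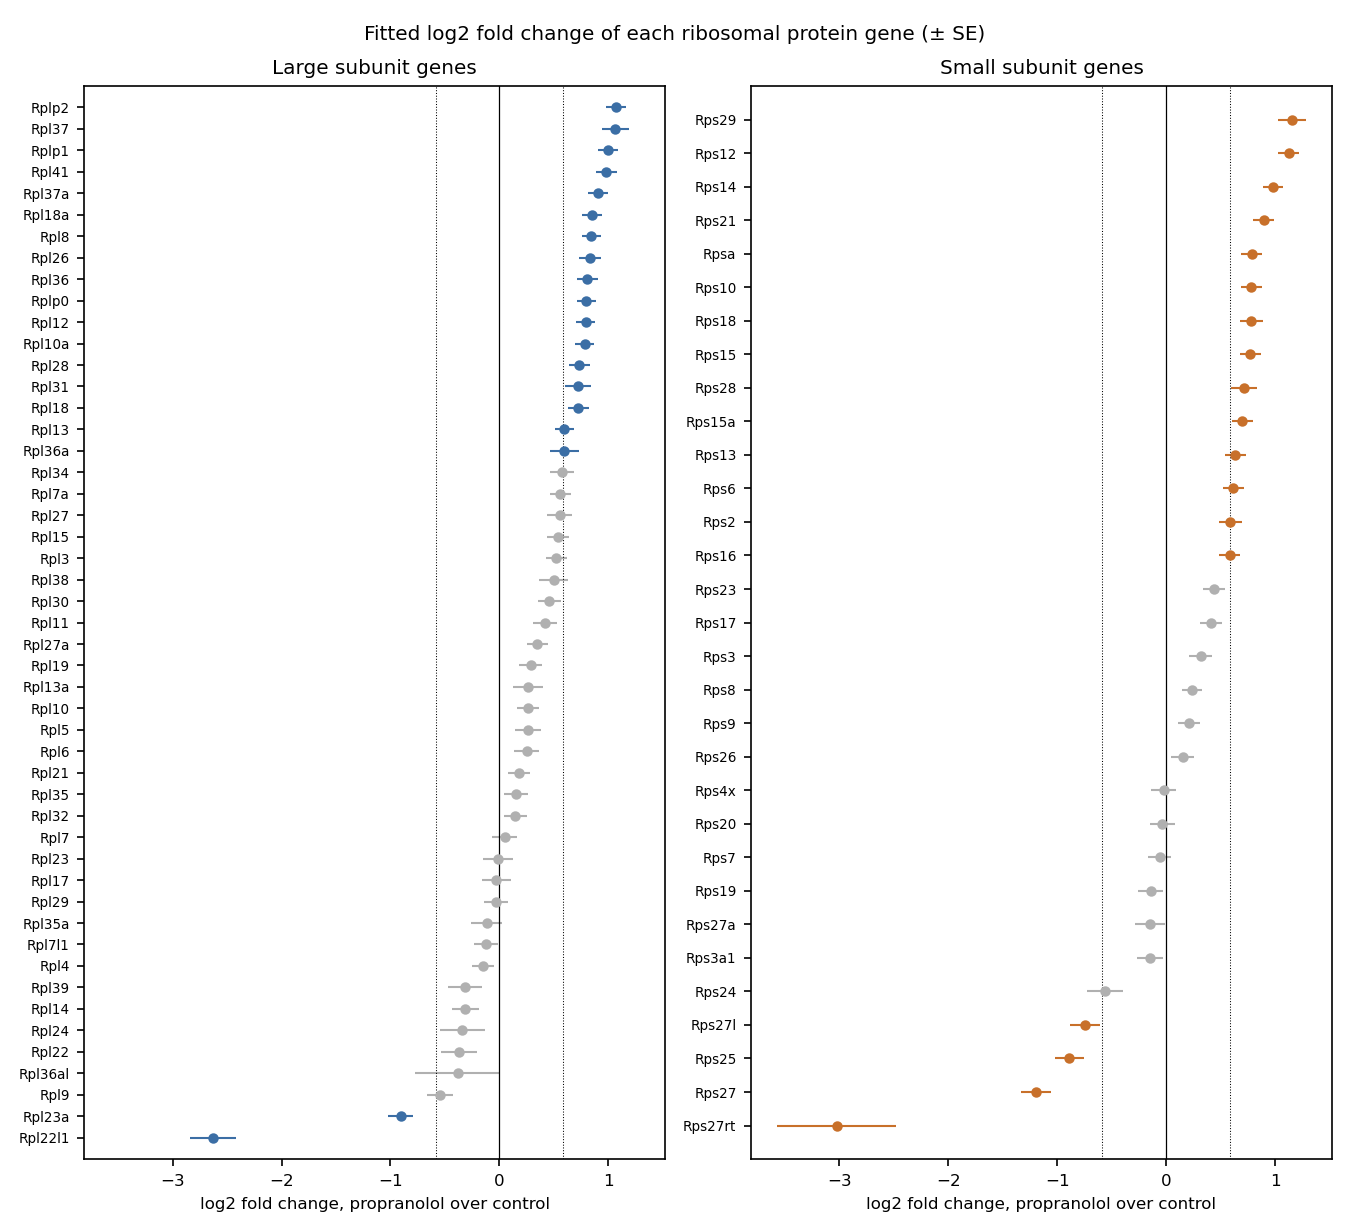
Fitted log2 fold change between propranolol and control libraries, with its standard error, for the 49 tested large subunit genes (left) and 31 of the 33 tested small subunit genes (right). Colored points were called and grey points were not, dotted lines mark 1.5-fold, and both panels run from about 1 on the log2 scale down to a few genes far below 0.

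The fold changes depended on how the libraries were scaled and on base composition, and both moved with the groups. The median over all tested genes was -0.25 when libraries were scaled to total counts, and then 13 ribosomal protein genes were called higher and 9 lower, against backgrounds of 4.15% and 23.8%. The median of the ribosomal protein genes exceeded that of all genes by 0.43 with TMM factors and by 0.44 with total counts. The GC content of a transcript was related to its fold change over all genes (Spearman's rho 0.58 across 14681 genes, which are not independent and share the same 4 libraries). The mean GC content of the genes, weighted by their counts, was 50.6% and 50.8% in control TAMs and 51.9% and 52.2% after propranolol. When a smooth trend with GC content was removed from each library, 25 ribosomal protein genes were called higher and 6 lower, against backgrounds of 7.64% and 4.99%. Of the 32 genes called higher, 20 were called again, and the median of the ribosomal protein genes exceeded that of all genes by 0.28.

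Large and small subunit genes had close median fold changes, while measures of level moved apart in opposite directions. The median log2 fold change was 0.42 over the 49 tested large subunit genes and 0.41 over the 33 small subunit genes, a difference of 0.01, which was between -0.05 and 0.06 with a library left out. The median level moved toward the small subunit. The median log2 CPM of the large minus that of the small subunit genes was -0.31 and -0.29 in control TAMs and -0.47 and -0.44 after propranolol, without overlap, with means of -0.30 ± 0.013 and -0.46 ± 0.022 (SD, n = 2). Among the large subunit genes 17 rose (34.7%) and 2 fell (4.08%), and among the small subunit genes 15 rose (45.5%) and 4 fell (12.1%), beside 12.2% and 15.6% over all tested genes. The middle 50% of the log2 fold changes ran from -0.03 to 0.73 in the large and from -0.06 to 0.77 in the small subunit. Without the 8 paralogs and extra copies the medians were 0.48 and 0.44. The summed counts, in which abundant genes weigh most, moved the other way. The large subunit had 1.23 and 1.24 times as many counts as the small subunit in control TAMs and 1.29 and 1.32 times as many after propranolol. These ratios did not overlap between groups, with means of 1.23 ± 0.00551 (SD, n = 2) and 1.30 ± 0.0224 (SD, n = 2). The share of all counts went from 1.56% to 1.89% for the large and from 1.26% to 1.45% for the small subunit.

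**Figure D2:**
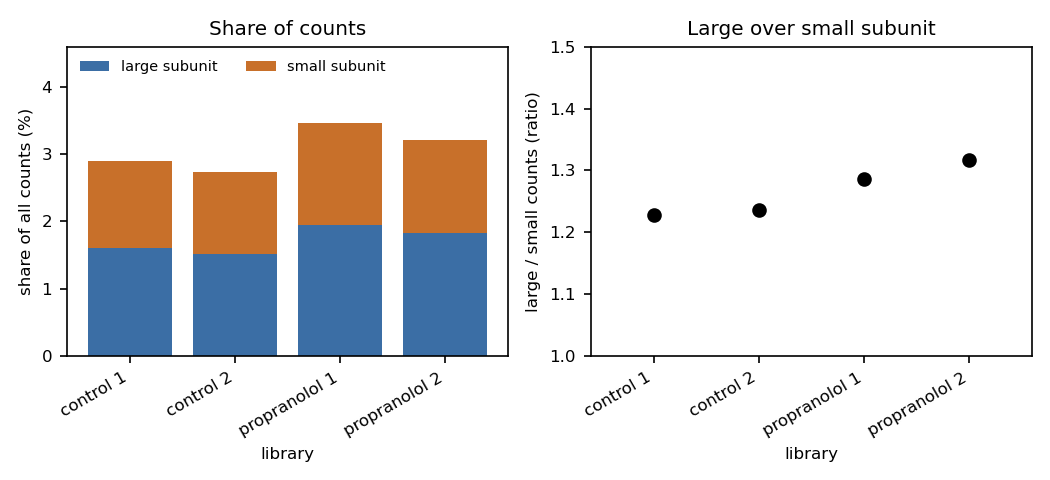
Share of all counts taken by large and small subunit genes in each library in percent (left, stacked bars) and the ratio of large to small subunit counts in each library (right, axis from 1.0 to 1.5). Both propranolol libraries lie above both control libraries in the total share (3.47% and 3.21% against 2.91% and 2.74%) and in the ratio.

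The start sites of ribosomal protein genes were compared with those of other genes, since the TOP tract lies there. The search used the letters CTTTC on the transcribed strand, within 20 bases before and 20 after the start site that RefSeq gives (build GRCm38.p6). They were present in 20 of the 65 ribosomal protein genes with an entry (30.8%) and in 5.90% of 16513 protein-coding genes of the count table. The share was 15 of 40 in the large and 5 of 25 in the small subunit. A window without these letters says only that they are not in it, because annotated and used start sites can differ by some bases. Windows of 10 bases before and 15 after the annotated start are shown for genes at the upper and the lower end of the fold changes, each with the letters searched in capitals:
Rplp2 (chr7:141447641-141447665, + strand): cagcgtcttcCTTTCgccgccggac
Rps12 (chr10:23787195-23787219, - strand): tcatgcggccaccgccggccttttc
Rpl37 (chr15:5116603-5116627, + strand): cctgggcggaagcttatccacagga
Rps27 (chr3:90213634-90213658, - strand): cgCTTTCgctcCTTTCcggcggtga
Rps27rt (chr9:114982725-114982749, - strand): ttatcccttgCTTTCcggcggtgac
Rpl22l1 (chr3:28805498-28805522, + strand): gcgcaagcccgttctcttcccacgg
The letters occurred at both ends of the range, in Rplp2, which rose, and in Rps27 and Rps27rt, which fell. Of the 19 tested genes with them 7 rose and 2 fell, with a median log2 fold change of 0.50, and of the 43 tested genes with an entry but without them 18 rose and 3 fell, with a median of 0.42. Over all 82 ribosomal protein genes 39.0% rose and 7.32% fell, and over all tested genes 12.2% and 15.6%.

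All 3 genes of the P stalk rose, where 39.0% of the 82 ribosomal protein genes and 12.2% of all tested genes did. The stalk is a flexible arm of the large subunit that recruits translation factors and activates their GTPase, and it is formed by Rplp0, its base, and by the acidic proteins Rplp1 and Rplp2. Rplp2 was measured at 333 and 309 CPM in control libraries and at 686 and 660 CPM in propranolol libraries, which is 2.10-fold (log2 1.07 ± 0.094 SE, adjusted p = 0.000103). Rplp1 was at 737 and 683 CPM against 1366 and 1469 CPM, or 1.996-fold (log2 0.997 ± 0.092 SE, adjusted p = 0.000103). Rplp0 was at 1279 and 1248 CPM against 2242 and 2153 CPM, or 1.74-fold (log2 0.80 ± 0.084 SE, adjusted p = 0.000153). In none of the 3 did the groups overlap, and the distance between groups was many times the distance between replicates. Their calls held with each library left out and after the GC correction, and the call of Rplp0 was lost with scaling to total counts (log2 0.57).

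Genes of both subunits were at the upper end. Rps29, a small zinc-binding protein at the head of the small subunit, had the highest fold change of all 82 genes. It was at 47.4 and 40.1 CPM in control libraries and at 89.3 and 105 CPM after propranolol, a change of 2.22-fold (log2 1.15 ± 0.13 SE, adjusted p = 0.000189). Rps12, another protein of the small subunit head, was at 291 and 272 CPM against 578 and 649 CPM, or 2.18-fold (log2 1.12 ± 0.10 SE, adjusted p = 0.000103). Rpl37, a zinc-binding protein of the large subunit, was at 168 and 133 CPM against 317 and 312 CPM, or 2.09-fold (log2 1.07 ± 0.12 SE, adjusted p = 0.000201).

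Rpl41, which encodes the shortest of the ribosomal proteins, went from 271 and 275 CPM to 564 and 514 CPM (log2 0.98 ± 0.095 SE, adjusted p = 0.000118). Rps14, a protein near the decoding region, went from 613 and 594 CPM to 1239 and 1143 CPM (log2 0.98 ± 0.091 SE, adjusted p = 0.000103). Rps29, Rps12, Rpl37, Rpl41, Rps14, Rplp1 and Rplp2 were called under each of the 16 other fits in which their fold change was estimated.

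Abundance per unit of length (TPM, from the exon length of each gene) varied over orders of magnitude between ribosomal protein genes, although most of the proteins are needed in equal numbers. Over the 82 tested genes, the control mean ran from 11.7 TPM for Rpl36al to 4722 TPM for Rplp1, with a median of 439 TPM. Among the most abundant in control TAMs were Rplp1 with 4722 ± 157 TPM (SD, n = 2), Rplp0 with 2529 ± 8.66 TPM and Rpl8 with 2144 ± 8.88 TPM in the large subunit, and Rps15 with 2304 ± 109 TPM and Rps2 with 1573 ± 50.1 TPM in the small subunit. Levels of genes with close copies are lowered to an unknown extent, because reads that fit several places equally well had been removed by the filter on mapping quality.

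Of the abundant genes not described above, Rpl8, Rps15 and Rps2 rose. Rpl8, a protein close to the peptidyl transferase center, was at 893 and 862 CPM against 1624 and 1528 CPM (log2 0.84 ± 0.088 SE, adjusted p = 0.000147). Rps15 was at 458 and 417 CPM against 772 and 720 CPM (log2 0.77 ± 0.096 SE, adjusted p = 0.000295). Rps2 was at 899 and 835 CPM against 1411 and 1198 CPM (log2 0.59 ± 0.10 SE, adjusted p = 0.0015), just past the 1.5-fold threshold. After the GC correction none of these 3 was called, with log2 fold changes of 0.51, 0.52 and 0.28.

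Among the core genes, only Rps27, Rpl23a and Rps25 were called lower. Rps27 encodes a zinc-binding protein of the small subunit and was at 208 and 167 CPM in control libraries and at 90.3 and 72.9 CPM in propranolol libraries, 2.29-fold lower (log2 -1.20 ± 0.14 SE, adjusted p = 0.000211). Rpl23a, which lies at the exit of the peptide tunnel where targeting factors bind, was at 96.4 and 93.1 CPM against 54.9 and 45.7 CPM, 1.88-fold lower (log2 -0.91 ± 0.12 SE, adjusted p = 0.000359). Rps25, a protein of the small subunit head on which several viral internal ribosome entry sites depend, was at 291 and 261 CPM against 170 and 127 CPM, 1.85-fold lower (log2 -0.89 ± 0.14 SE, adjusted p = 0.000802). For all 3 genes the propranolol libraries lay below the control libraries, and the calls held with each library left out and after the GC correction. Their counts carry some ambiguity. Of the exonic bases of Rpl23a 62.3% are also exonic in Tlcd1 or Snord42b, and of those of Rps25 24.8% in Ccdc84 or Trappc4. Of the 50-base stretches of the mRNA, 98.6% of those of Rps27, 85.7% of Rpl23a and 72.8% of Rps25 occur in another annotated gene. For Rps25 the gene that shared most was the overlapping Trappc4, so its exon overlap enters this share too. The counting settings that the study gives name no strand option, and featureCounts then counts without regard to strand, so that reads of overlapping genes on either strand cannot be told apart.

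Rps24 and Rpl9 were next in order. Rps24 was at 294 and 256 CPM against 223 and 148 CPM (log2 -0.56 ± 0.17 SE, adjusted p = 0.021) and Rpl9 at 227 and 208 CPM against 164 and 132 CPM (log2 -0.55 ± 0.12 SE, adjusted p = 0.0049). Both had groups that did not overlap and changes below 1.5-fold, and both were called lower without control replicate 2, without propranolol replicate 1, and with scaling to total counts or to the upper quartile. Rps24 was also called lower under the stricter filter on low counts and with the replicate number as a block (log2 -0.59). Its log2 fold change was -0.27 without propranolol replicate 2 and -0.034 after the GC correction, with adjusted p-values of 0.091 and 0.90, and those of Rpl9 were -0.37 and -0.41.

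**Figure D3:**
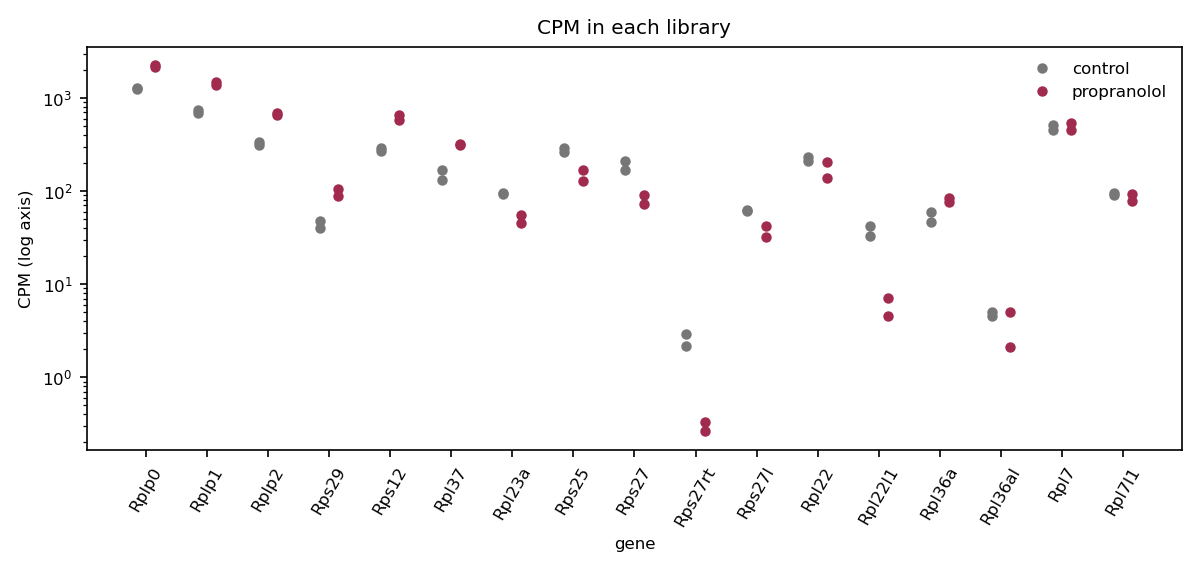
CPM of 17 ribosomal protein genes in each of the 4 libraries on a log axis, with control libraries in grey and propranolol libraries in red. P stalk genes, Rps29, Rps12 and Rpl37 are higher in both propranolol libraries, and Rpl23a, Rps25, Rps27, Rps27rt, Rps27l and Rpl22l1 are lower in both.

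The family of Rps27 has 3 members in the mouse, and all 3 fell. Of the 82 tested ribosomal protein genes 7.32% fell, and of all tested genes 15.6%. Rps27 lies on chromosome 3 (GRCm38, 90212522 to 90213651), its copy Rps27rt on chromosome 9 (114982366 to 114982739) and the paralog Rps27l also on chromosome 9 (66946086 to 66949516). The coding sequences of Rps27 and Rps27rt are identical over all 255 bases, so reads from these bases cannot be assigned to either with certainty, and that of Rps27l differs from them at 61 of 255 positions. The coding sequences are shown, with the bases in which Rps27l differs in capitals:
Rps27 and Rps27rt: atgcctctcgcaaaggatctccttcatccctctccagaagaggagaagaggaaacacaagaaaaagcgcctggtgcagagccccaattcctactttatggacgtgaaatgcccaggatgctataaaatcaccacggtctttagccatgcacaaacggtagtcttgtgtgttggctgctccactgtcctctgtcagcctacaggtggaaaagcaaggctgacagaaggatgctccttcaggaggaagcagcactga
Rps27l: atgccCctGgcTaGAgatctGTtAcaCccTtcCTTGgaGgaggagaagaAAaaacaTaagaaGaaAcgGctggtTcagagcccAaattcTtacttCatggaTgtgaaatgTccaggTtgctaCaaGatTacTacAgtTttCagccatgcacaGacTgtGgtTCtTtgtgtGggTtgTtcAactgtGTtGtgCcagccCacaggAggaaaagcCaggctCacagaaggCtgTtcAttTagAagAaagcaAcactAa
Rps27rt had 43 and 54 counts in control TAMs and 12 and 4 after propranolol, or 2.90 and 2.15 CPM against 0.330 and 0.262 CPM, and had the lowest fold change of all 82 genes (log2 -3.02 ± 0.55 SE, adjusted p = 0.0018). Its level is near the limit of the filter on low counts, and its counts cannot be separated with certainty from those of Rps27. Rps27l, which is induced by p53 in other settings, was at 61.2 and 62.8 CPM against 41.7 and 31.9 CPM (log2 -0.74 ± 0.14 SE, adjusted p = 0.0022). Only 22.4% of its 50-base stretches are shared with another gene. The call of Rps27l was lost without propranolol replicate 2 and after the GC correction (log2 -0.21, adjusted p = 0.25).

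Rpl22l1, a paralog of the RNA-binding protein Rpl22 that can take its place in the large subunit, fell most clearly. It was at 41.9 and 33.0 CPM in control libraries and at 7.10 and 4.58 CPM in propranolol libraries, 6.19-fold lower (log2 -2.63 ± 0.21 SE, adjusted p = 0.000103). The 2 groups were far apart relative to the spread of the replicates, and the call held under all 16 other fits, with log2 fold changes from -3.02 to -2.13. Rpl22 itself was at 235 and 212 CPM against 206 and 138 CPM (log2 -0.37 ± 0.16 SE, adjusted p = 0.093) and did not pass the test, although its propranolol libraries lay below its control libraries. It was called lower without propranolol replicate 1 (log2 -0.69) and with scaling to total counts (-0.60), and its log2 fold change was -0.08 without propranolol replicate 2 (adjusted p = 0.66). The coding sequences of the pair are identical at 69.3% of aligned positions, and 5.19% of the 50-base stretches of Rpl22 and 65.6% of those of Rpl22l1 occur in another annotated gene. Per unit of length, Rpl22l1 was at 62.4 ± 9.24 TPM and Rpl22 at 254 ± 13.3 TPM in control libraries (SD, n = 2), against 8.23 ± 2.28 TPM and 166 ± 42.2 TPM after propranolol.

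The other paralogs were not called. Rpl36al, a close relative of Rpl36a, was at 5.06 and 4.50 CPM against 4.98 and 2.10 CPM (log2 -0.38 ± 0.39 SE, adjusted p = 0.46), with overlapping groups. Its log2 fold change was -1.18 without propranolol replicate 1, where it was called lower, and 0.093 without propranolol replicate 2. Its partner Rpl36a was at 60.2 and 46.8 CPM against 84.8 and 76.3 CPM (log2 0.60 ± 0.14 SE, adjusted p = 0.0059) and was called higher, but not without control replicate 2 or propranolol replicate 1. Rpl7l1, a nucleolar relative of Rpl7, was at 94.9 and 91.7 CPM against 92.4 and 78.3 CPM (log2 -0.12, adjusted p = 0.40). Rpl7 was at 508 and 448 CPM against 541 and 447 CPM (log2 0.05, adjusted p = 0.76), with overlapping groups. The coding sequences of Rpl36a and Rpl36al are identical at 87.8% of aligned positions and those of Rpl7 and Rpl7l1 at 57.2%. The 3 untested genes are known for narrow expression in testis or muscle. Rpl10l had 0 counts in all 4 libraries, Rpl39l had 8 and 2 counts in control TAMs and 3 and 1 after propranolol, and Rpl3l had 0 and 3 against 10 and 10. None of the 5 tested paralogs and extra copies was called higher and 3 were called lower, against 12.2% and 15.6% of all tested genes. All 5 had a negative log2 fold change, with a median of -0.74. The medians of the core genes were 0.48 in the large and 0.44 in the small subunit.

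Neighborhoods of the ribosome were compared by counts alone. Of the 9 proteins along the mRNA channel and at the decoding site, 5 rose (Rps2, Rps14, Rps15, Rps28 and Rpsa) and none fell, and their median was 0.59. The higher genes were 55.6% of this list, against 39.0% of the 82 ribosomal protein genes and 12.2% of all tested genes. Of these 5 calls, those of Rps2 and Rps28 were lost without propranolol replicate 1 (log2 0.47 and 0.53). That of Rps2 was also lost without control replicate 2 (log2 0.55), and those of Rps2 and Rps15 after the GC correction. Rpsa, which binds at the mRNA exit and also serves as a laminin receptor, was at 636 and 590 CPM against 1092 and 1019 CPM (log2 0.78 ± 0.093 SE). Of the 9 proteins around the peptide exit tunnel, 2 rose (Rpl26 and Rpl31), Rpl23a fell, and the median was -0.03. These shares were 22.2% and 11.1%, against 39.0% and 7.32% of the 82 ribosomal protein genes. The 3 proteins that bind the p53 ubiquitin ligase Mdm2 when free of the ribosome, Rpl5, Rpl11 and Rpl23, did not pass, with log2 fold changes of 0.26, 0.42 and -0.01. Rpl5 was called higher after the GC correction (log2 0.84, adjusted p = 0.0011) and Rpl11 without control replicate 1 (log2 0.59, adjusted p = 0.0014). The groups did not overlap in Rpl5, at 128 and 105 CPM against 145 and 133 CPM, and in Rpl11, at 217 and 186 CPM against 285 and 254 CPM. These lists are short and their difference was not tested.

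Sequence features of the genes were set beside their fold changes. Across the 82 tested genes, the log2 fold change had a rank correlation of 0.44 with the GC content of the longest transcript, of -0.09 with the share of 50-base stretches found in another annotated gene and of -0.05 with exon length. These are descriptions over genes measured in the same 4 libraries, without a test. The relation with GC content was present in both subunits (0.49 in 49 large and 0.36 in 33 small subunit genes), against 0.58 over all tested genes. Ribosomal protein genes had a median GC content of 50.8%, and all tested genes one of 49.6%. The GC correction removed 12 of the 32 calls, among them Rpl8, Rpl37a, Rpl36 and Rpl26, and added Rpl15, Rpl30, Rpl5, Rps20 and Rps23. Of these, Rpl30 went from a log2 fold change of 0.46 to 1.44. The correction took the GC content of the longest annotated transcript, which is 39.1% for Rpl30, while the mRNA of Rpl30 used for counting shared stretches has 55.3%, so that its corrected value depends on the choice of transcript. Of the 6 lower genes 5 were called again, and Rpl14 was added. Longest transcript and mRNA also differed in GC content for Rpl37a (58.3% and 47.1%) and Rps12 (45.2% and 53.1%). The same held for Rpl14 (56.6% and 51.8%) and Rps27 (55.4% and 50.7%), so their corrected values share this limit. For Rpl8, Rpl36, Rpl15, Rpl5, Rps20 and Rps23 the GC content was the same in both.

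Close copies make the counts of this gene family ambiguous, since the mouse genome holds many processed pseudogenes of it. In the table, 289 genes were annotated as ribosomal protein pseudogenes by their symbols, and their summed share of counts was at least 0.0104% and at most 0.0110% in each library. The share of 50-base stretches of the mRNA found in another annotated gene had a median of 49.4% over the 85 genes and ran from 0% to 98.6%. It includes stretches shared with genes that overlap at the same place, which are not copies. Among the 40 tested genes below 50% of shared stretches, 18 rose and 1 fell with a median log2 fold change of 0.52, and among the 42 others 14 rose and 5 fell with a median of 0.35. Over all tested genes 12.2% rose and 15.6% fell. Exons of 39 of the 85 genes overlapped an exon of another gene, among them small nucleolar RNAs in Rps12 and Rplp2.

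**Figure D4:**
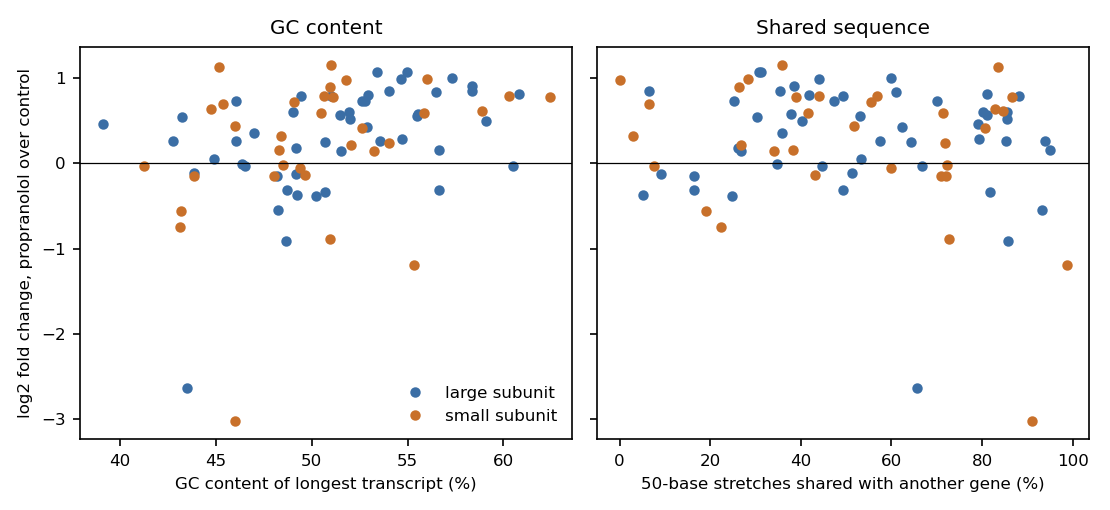
Log2 fold change of the 82 tested ribosomal protein genes against the GC content of the longest transcript in percent (left) and against the percentage of 50-base stretches of the mRNA found in another annotated gene (right), with large subunit genes in blue and small subunit genes in orange. The points rise with GC content (rank correlation 0.44) and show little relation with shared sequence (-0.09).

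Genes that make or serve the cytosolic ribosome were compared in the same fit. Of the ribosomal proteins without an Rpl or Rps symbol, Rack1 and Fau rose. Rack1, a scaffold protein on the small subunit, was at 1079 and 1089 CPM against 2049 and 2012 CPM (log2 0.91 ± 0.084 SE). Fau, the precursor of a small subunit protein, was at 501 and 490 CPM against 848 and 790 CPM (log2 0.73 ± 0.091 SE). The call of Fau was lost after the GC correction and with total counts, and that of Rack1 under none of the other fits.

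Of the 11 elongation and termination factors 1 rose and 1 fell (9.09% each), with a median of 0.32. Eef2, the translocase, whose mRNA also carries a TOP tract, was at 3040 and 2949 CPM against 5102 and 5485 CPM (log2 0.82 ± 0.083 SE), and Abce1, the recycling factor, at 97.8 and 95.5 CPM against 72.5 and 52.8 CPM (log2 -0.62 ± 0.14 SE). Of the 36 initiation factors 8 rose (22.2%) and 6 fell (16.7%), against 12.2% and 15.6% of all tested genes, with a median of 0.19. The 2 that rose most were Eif2b2 (log2 1.20) and Eif3i (0.95), and the 2 that fell most were Eif3e (-1.33) and Eif5 (-1.003). Of the 21 mTORC1 components and regulators of TOP mRNAs 4 rose, led by Mtor (0.74) and Mlst8 (0.71), and 3 fell, led by Pdcd4 (-1.14) and Larp4 (-0.77), with a median of 0.45. These were 19.0% and 14.3% of the list, beside 12.2% and 15.6% over all tested genes. After the GC correction the calls of Eef2, Abce1, Eif3e, Eif5, Mtor, Mlst8 and Larp4 were lost, and Abce1, Eif3e and Larp4 had log2 fold changes of 0.21, 0.02 and 0.25. The call of Abce1 was also lost without control replicate 1 or propranolol replicate 2, and those of Mtor and Mlst8 with total counts.

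Genes of rRNA synthesis and ribosome assembly moved in both directions. Of the 72 genes 15 rose (20.8%) and 11 fell (15.3%), against 12.2% and 15.6% of all tested genes, with a median of 0.00. Bop1 (log2 1.18) and Nle1 (1.07), which act in maturation of the large subunit, rose, and Rsl1d1 (-1.29) and Brix1 (-1.15), also factors of large subunit assembly, fell. The abundant nucleolar proteins Ncl and Npm1, named here after their values were seen, were at 496 and 419 CPM against 294 and 230 CPM and at 336 and 277 CPM against 194 and 140 CPM, and both fell (log2 -0.80 and -0.87). Ncl and Npm1 were not followed through the other fits, so whether their calls hold after the GC correction is not known. Of the 12 genes of ribosome quality control found in the annotation, Skiv2l (0.79) rose and 3 fell, among them Xrn1 (-0.92) and Nemf (-0.67), with a median of -0.19. The shares over all tested genes were 12.2% higher and 15.6% lower. Ribosomal proteins of the mitochondrion, which belong to a different ribosome, had a median of 0.20, and 13 of 77 rose, led by Mrpl17 and Mrps34 (log2 0.91 and 0.90), and 6 fell, led by Mrps18c and Mrpl32 (-0.84 and -0.79). These were 16.9% and 7.79% of the list, against 12.2% and 15.6% of all tested genes. Their share of counts was 0.218% and 0.216% in control TAMs and 0.235% and 0.205% after propranolol, with overlapping groups. After the GC correction the calls of Brix1, Skiv2l, Xrn1, Nemf, Mrps34, Mrps18c and Mrpl32 were lost, and those of Bop1, Nle1, Rsl1d1 and Mrpl17 held. The calls of Nemf and Mrps18c were also lost without propranolol replicate 2, and that of Skiv2l with total counts.

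**Figure D5:**
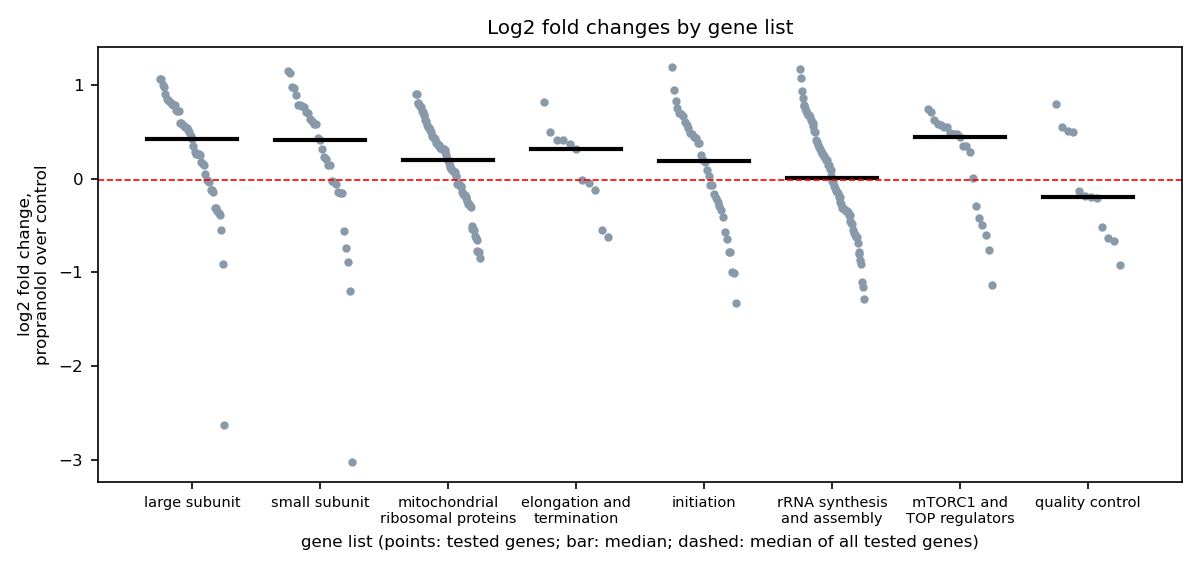
Log2 fold change between propranolol and control libraries of each tested gene, by list, with the median of each list as a bar and the median of all tested genes as a dashed line at -0.02. Large and small subunit genes have medians of 0.42 and 0.41, and the assembly list has a median of 0.00.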

How the data were processed

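RNA-seq counts of sorted TAMs were analyzed for 2 control and 2 propranolol libraries. The authors aligned reads to mm10 with STAR 2.7.1a, removed alignments with a mapping quality of 30 or less with SAMtools 1.9, and counted fragments on exons with featureCounts 1.6.4. The deposited values are whole, unnormalized counts per gene, and 0 columns of the table were left out. The counting settings cover paired reads and exons and name no strand option, and the annotation release was not given in the sources used here. Identifiers were matched to GENCODE M21. In R 4.3.3, edgeR 4.0.16 was run without covariates, with TMM factors, filterByExpr at a minimum count of 10 and the quasi-likelihood test. Standard errors were derived from the fold change and F statistic, and CPM uses TMM-scaled totals. The named genes are the 8 highest and 8 lowest, the P stalk, the tested paralogs with partners, the 3 most abundant per subunit and, of other lists, the 2 highest and 2 lowest called, and a few items that the rule names are not reported here. The members and lists were chosen with earlier results of these data known. Alternatives used DESeq2 1.42.0, limma 3.58.1, other scalings, filters and thresholds, each library left out, a replicate block and splines of GC content and length with 5 degrees of freedom. Shared stretches were counted over annotated transcripts only, on either strand, so copies outside the annotation are missed. Stretches shared with a gene that overlaps at the same place are included, so the share is not a lower bound on close copies. Genes with few counts are measured least precisely, and a count of 0 allows up to 3 counts, for counting error only.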

Additional observations from a re-analysis of the deposited data

How the results depend on the processing

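The count of higher genes was 32 as reported and between 25 and 37 under DESeq2, limma-voom, DESeq2 size factors, upper-quartile factors, other filters and the GC corrections. It was 13 with total counts alone, 14 with glmTreat against 1.5-fold and 0 at a log2 fold change over 1.5, where 2 genes were lower, and 45 without a fold threshold, where 8 were lower. With total counts the subunit medians were 0.19 and 0.18, and of all called genes 14.8% were higher, against 44.0% with TMM factors. With core genes alone 3 genes were lower and the large minus small subunit median was 0.0410. This difference, 0.0109 as reported, was 0.0529 after the GC correction, 0.0630 with the GC correction and replicate block, 0.0408 after the GC and length correction and 0.0478 with the GC and length correction and replicate block. The rise in the share of counts, 0.52 percentage points, was 1.02 with TMM-scaled library sizes. With each library left out, higher genes numbered 27 to 40 and lower genes 5 to 10, the large subunit median was 0.31 to 0.60, the small subunit median 0.36 to 0.54, the large minus small subunit median -0.0519 to 0.0586 and the rise in share 0.39 to 0.65 percentage points. Among the fits with a library left out, the highest count of higher genes was found without control replicate 1, which had the highest fibroblast and tumor cell marker level, and the highest count of lower genes without propranolol replicate 1. The causes were not tested. The library left alone in its group took its spread from the other group.

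After the GC correction, with the GC correction and replicate block, after the GC and length correction and with both corrections and the block, the log2 fold change was 0.21, 0.20, 0.19 and 0.18 for Abce1 and 0.25, 0.25, 0.27 and 0.27 for Larp4, and in the first 3 of these 0.0206, 0.0050 and 0.00048 for Eif3e. The pairing of libraries by replicate number was weak, with a correlation of deviations between groups of 0.17 over 14688 genes, and the numbers are names only. With the replicate block 31 ribosomal protein genes were higher and 7 lower. A pair of libraries per group limits all statements here, and single counts in genes such as Rps27rt, Rpl36al, Rpl39l and Rpl3l are too few for a firm fold change.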
